A study of Mus musculus with 238 samples.

Results

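The transcripts described here are those of the histamine system of the mouse brain: the receptor genes Hrh1, Hrh2 and Hrh3 and the gene of histidine decarboxylase, Hdc. They were taken by symbol and make up 4 of 21076 gene rows of a table of read counts. The set was chosen by a measured response, that of Hrh3 to diet, so every diet value of Hrh3 is given as a description without a test. The diet values of the other members, all values after plasma, and the levels across regions in control mice did not choose the set. The remaining receptor gene, Hrh4, had 9 counts in all, in 8 libraries, too few to be tested.

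Histamine is made from histidine by histidine decarboxylase. In the brain the neurons that make it lie in the tuberomammillary nucleus of the posterior hypothalamus and send axons to nearly all other regions, where histamine promotes wakefulness and modulates appetite. H1 receptors couple to Gq proteins and phospholipase C and are excitatory, H2 receptors couple to Gs and raise cyclic AMP, and H3 receptors couple to Gi/o. The H3 receptor is found mainly on neurons. It sits on histamine axons, where it limits histamine synthesis and release, and on other neurons, where it limits the release of their transmitters. Mast cells are the other source of histamine in brain tissue.

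Bulk RNA sequencing had been done on 16 C57BL/6JN mice, all 19 months old, in 238 libraries of which 229 were from 15 brain regions and 9 from liver. In the diet experiment, 5 dietary restricted female mice (aDR, called DR in the liver labels) were compared with 4 females fed ad libitum (AL). In the plasma experiment, 3 male mice given retro-orbital injections of plasma from young mice (YMP) were compared with 4 males given PBS. Sex and experiment cannot be told apart, and the labels give neither the length nor the depth of the restriction. Libraries of a region and group came from separate mice, 2 to 5 in each. Some regions lacked a library of some mice, so that the mouse numbers below are given by group and mouse.

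The smallest library held 0.606 M counts (M stands for mega), the median library 8.44 M and the largest 32.4 M, while 6 fell below 2 M. The median library held 763 counts of Hrh3 (19 to 4499), 110 of Hrh1 (0 to 731), 55 of Hrh2 (2 to 354) and 16 of Hdc (0 to 1353). These reads were amplified by PCR without molecular identifiers, so limits set by counts cover counting error only. Some labels did not match the markers of the tissue alone. The summed level of 8 choroid plexus genes ran from 160 to 16554 CPM (counts per M counts of the library) in the choroid plexus libraries, beside 4293 to 7524 CPM of 6 pan-neuronal genes. The corpus callosum libraries held 3543 to 10077 CPM of 10 striatal projection neuron genes, against 234 to 281 CPM in motor cortex. In bulk tissue, fewer cells of a type and less RNA per cell cannot be told apart.

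Hrh3 lies on the minus strand of chromosome 2 at chr2:180099465-180104488 (GRCm38, GENCODE vM21), with 3 exon blocks of 3146 bases in all. Hdc lies on the same chromosome and strand at chr2:126593667-126619299, with 12 exon blocks of 6389 bases. Hrh1 lies at chr6:114397936-114483296 and Hrh2 at chr13:54192129-54236180, both on the plus strand, with 4450 and 5935 exon bases. An annotated antisense gene overlaps exons of Hrh3 (Gm17180) and another overlaps exons of Hrh2 (Gm16578). The libraries carried no strand, so reads from these antisense genes, which were not analysed here, cannot be told apart from receptor reads.

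The 250 bases before the start site of the gene with the set's diet response, Hrh3, and of the enzyme gene Hdc are shown because these promoters stood far apart in base composition. They are from RefSeq (GRCm38.p6), read 5′ to 3′ on the gene's strand, with the GC box GGGCGG in capitals.
Hrh3, chr2:180104408-180104657, minus strand: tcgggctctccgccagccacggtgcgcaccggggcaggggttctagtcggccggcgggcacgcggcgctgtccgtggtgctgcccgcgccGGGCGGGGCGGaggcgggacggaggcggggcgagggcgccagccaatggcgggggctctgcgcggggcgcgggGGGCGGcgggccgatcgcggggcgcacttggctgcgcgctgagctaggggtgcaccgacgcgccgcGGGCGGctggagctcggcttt
Hdc, chr2:126618679-126618928, minus strand: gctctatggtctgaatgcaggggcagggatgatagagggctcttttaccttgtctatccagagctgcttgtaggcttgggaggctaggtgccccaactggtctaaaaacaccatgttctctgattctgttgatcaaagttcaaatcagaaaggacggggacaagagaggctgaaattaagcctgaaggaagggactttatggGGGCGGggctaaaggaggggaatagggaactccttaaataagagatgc
The Hrh3 window was 80.8% G and C and held 42 CpG dinucleotides, more than 99.1% of the 32851 promoter windows searched. It held 4 matches to GGGCGG or its reverse complement CCGCCC, of which a pair overlap, and 1 match to CCAAT. The Hdc window was 48.8% G and C, against a median of 52.4% over all windows, and held 2 CpG dinucleotides and 1 GC box. On either strand, GGGCGG was present in 32.7% of all windows, CCAAT in 33.8%, TATAAA in 12.4% and the E-box CACGTG in 6.02%. Neither window held TATAAA or CACGTG. The RefSeq start sites used here lie downstream of the GENCODE gene starts given above, so the Hdc window falls wholly within that gene span and the Hrh3 window in part.

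Levels across the brain were described in the 8 control mice (AL and PBS together), in CPM and, to compare genes, in CPM per kilobase of exon. Hrh3 was the most abundant member per length: its highest regional mean was 81.6 CPM per kilobase, against 9.09 for Hrh1, 3.99 for Hdc and 3.87 for Hrh2. Each gene peaked in a different region, Hrh3 in thalamus, Hrh1 in visual cortex, Hrh2 in olfactory bulb and Hdc in hypothalamus. The ratio of the highest to the lowest regional mean was 35.5 for Hdc, 12.95 for Hrh1, 10.9 for Hrh3 and 6.02 for Hrh2. The orders of regions in the AL females and the PBS males had a rank correlation over 15 regions of 0.96 for Hrh1 and Hrh3, 0.88 for Hrh2 and 0.83 for Hdc.

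**Figure D1:**
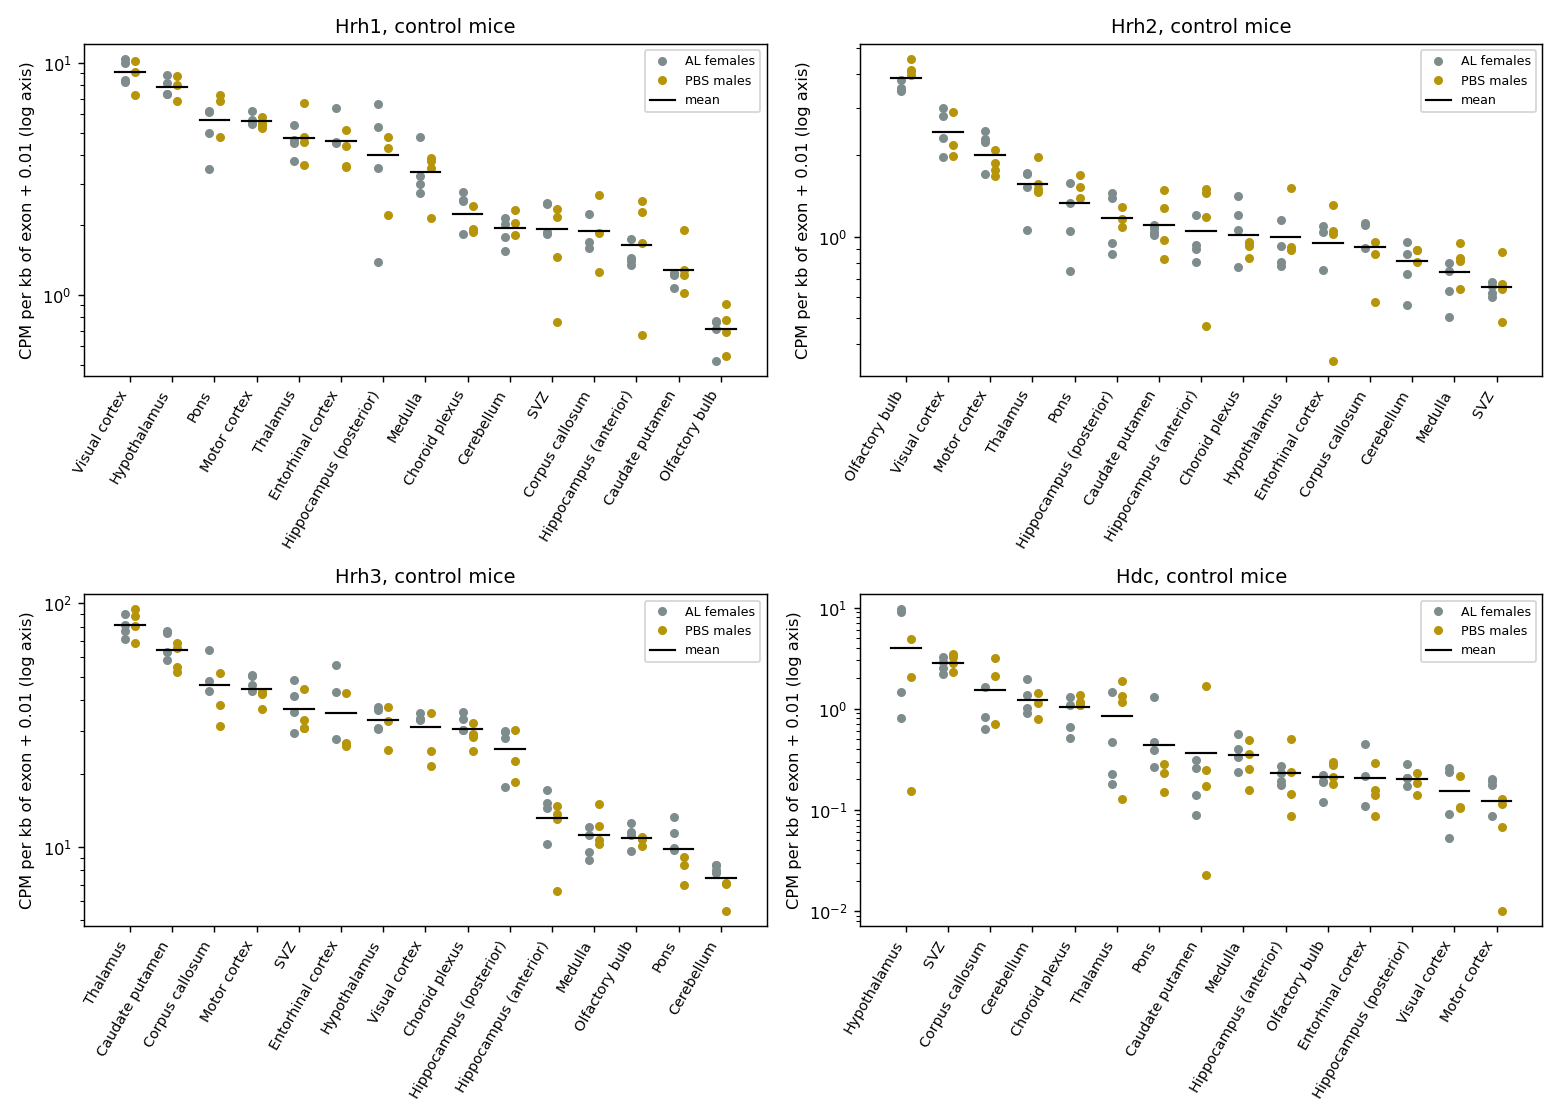
Level of each histamine gene in every control library, by brain region in falling order of the mean, as CPM per kilobase of exon plus 0.01 on a log axis. Points are libraries of AL females and PBS males and bars are means. Hrh3 runs from 81.6 in thalamus to 7.46 in cerebellum, and Hdc of the hypothalamus is the most scattered.

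Each region was set against the mean of the other 14 in the control mice with the quasi-likelihood test of edgeR, adjusted over all genes in that region (adjusted p under 0.05 is called). Over all genes and regions, 30.3% of such tests were called higher and 28.5% lower, so regional differences were the rule. Hdc was called higher in 6 regions and lower in 6, Hrh1 in 7 and 7, Hrh2 in 4 and 7, and Hrh3 in 9 and 5.

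Hdc, the enzyme of histamine synthesis, stood at 25.5 ± 25.2 CPM in the hypothalamus (SD, n = 7), 3.22 ± 0.25 (SE) log2 units above the other regions (adjusted p = 2.1e-21). This SE and p come from a fit of all brain regions together and do not measure the spread among hypothalamus libraries. The same holds for the SE and p of the other regions and members set against the other regions below. The 4 AL hypothalami had 5.08, 9.31, 57.8 and 61.3 CPM and the 3 PBS hypothalami 0.911, 12.9 and 31.2. In CPM, the lowest and the highest control library differed by more than in any other region. The second level was in the SVZ, at 18.0 ± 2.90 CPM (n = 8), 2.72 ± 0.25 log2 units above the other regions (adjusted p = 3.6e-17). There the 4 AL libraries had 14.1, 16.2, 18.2 and 20.5 CPM and the 4 PBS libraries 14.6, 18.2, 20.4 and 22.0, a narrow band without low libraries. Corpus callosum (9.63 ± 6.46, n = 6), cerebellum (7.76 ± 2.504, n = 7), choroid plexus (6.52 ± 1.91, n = 8) and thalamus (5.39 ± 4.35, n = 8) were also called higher. Motor cortex was lowest, at 0.718 ± 0.428 CPM (n = 8), with at most 20 counts in any control library. Of the 14 pairs of neighbours in the order, only SVZ and corpus callosum differed by more than the larger of their SDs.

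Across the 14 hypothalamus libraries, Hdc ran from 0.911 to 154 CPM, and it was set beside genes of other hypothalamic cells. The library with most Hdc, aDR 67, had 17.4 CPM of Foxb1, a transcription factor of the mammillary region, and 5.56 CPM of Avp, the vasopressin gene of the anterior hypothalamus. AL 66, with 61.3 CPM of Hdc, had 12.5 of Foxb1 and 20.1 of Avp, and YMP 73, with 65.3 CPM of Hdc, had 12.2 and 1.62. Libraries with little Hdc were the reverse: AL 69 had 9.31 CPM of Hdc, 3.86 of Foxb1 and 894 of Avp, and aDR 64 had 12.01, 2.88 and 692. An exception was aDR 62, low in both, with 3.01 CPM of Hdc and 0.624 of Avp. Slc18a2, the vesicular monoamine transporter that loads histamine into vesicles, was 102 CPM in aDR 67 and 18.3 CPM in PBS 72, the library with least Hdc. It did not follow Hdc in every library: aDR 62 had 66.9 CPM of Slc18a2, and YMP 73, with far more Hdc, had 51.3. PBS 72 also stood apart in Pmch, the gene of melanin-concentrating hormone of the lateral hypothalamus, with 1.49 CPM against 84.5 to 2265 CPM in the others. High and low libraries occurred in the AL, aDR and YMP groups alike. The part of dissection in these differences was not tested.

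**Figure D2:**
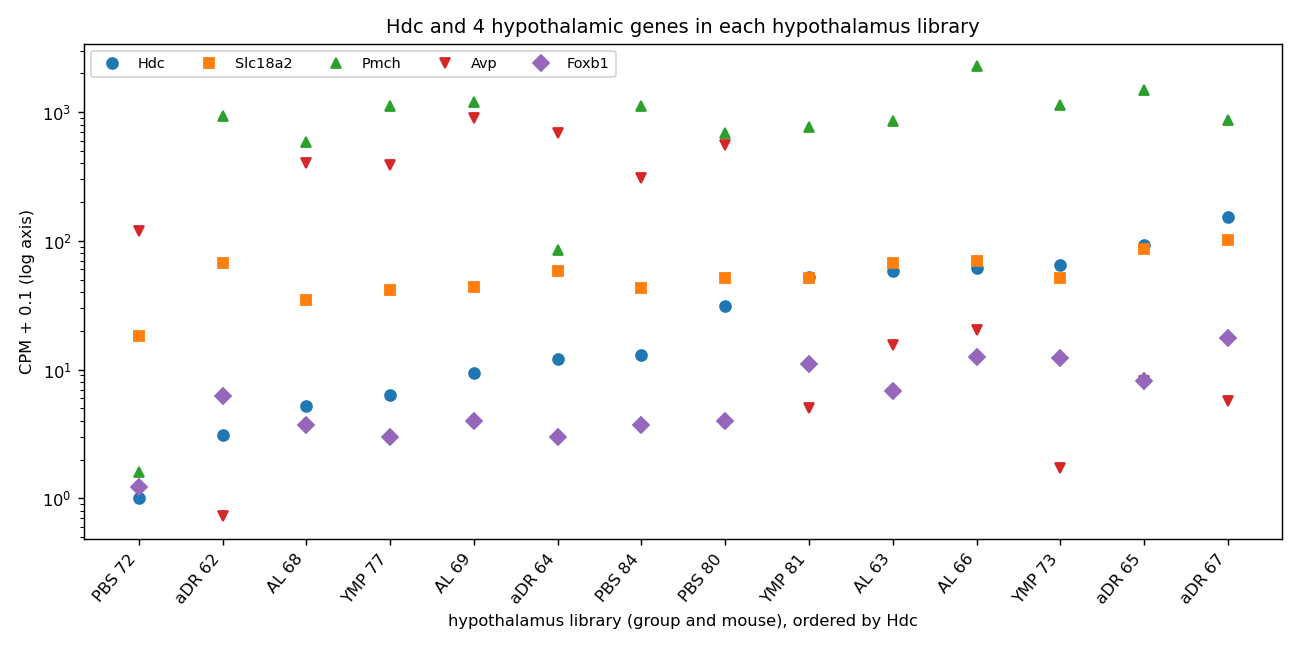
Hdc and the genes Slc18a2, Pmch, Avp and Foxb1 in each of the 14 hypothalamus libraries, in CPM plus 0.1 on a log axis, in rising order of Hdc from 0.911 to 154 CPM. Avp is below 21 CPM in the 6 libraries with most Hdc, and Pmch is near 1.5 CPM in PBS 72 alone.

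Markers of mast cells were near the floor in the SVZ. There, 6 of 8 mast cell markers were at 0 in all 16 libraries, among them the proteases Cpa3, Cma1, Mcpt4, Tpsb2 and Tpsab1, and the sum without Hpgds, a gene that microglia also express, was at most 0.24 CPM. Markers of ciliated ependymal cells, the lining of the ventricles, were compared with Hdc. This list of 6 genes (Foxj1, Tmem212, Ccdc153, Dynlrb2, Pifo and Rarres2) was added after levels of Hdc had been seen. Its summed level had a median of 220 CPM in the SVZ (153 to 268), 109.6 in hypothalamus, 83.9 in choroid plexus, 78.5 in corpus callosum and 13.5 in motor cortex. In the thalamus the libraries YMP 77, PBS 72 and AL 68 had the most Hdc, at 15.4, 11.9 and 9.26 CPM, and sums of 167, 144 and 148 CPM. Those with the least, aDR 65, PBS 80 and aDR 61, had 0.711, 0.755 and 0.862 CPM of Hdc and sums of 20.2, 20.2 and 20.5 CPM. In the caudate putamen the library PBS 76, with 10.6 CPM of Hdc where the others had 0.0804 to 3.42, had a sum of 122 CPM against 20.2 to 62.7. In corpus callosum the library with most Hdc, PBS 80 at 20.4 CPM, had the highest sum, 187 CPM. The library with least Hdc there, aDR 67 at 3.88 CPM, had 76.4 CPM, above the 58.1 CPM of AL 63. High sums and high Hdc did not go together everywhere. The cerebellum had 4.97 to 12.4 CPM of Hdc in every library and a median sum of 21.6 CPM (15.7 to 61.0). In pons, the libraries with most Hdc, YMP 77 and aDR 64 at 24.5 and 19.6 CPM, had sums of 26.1 and 34.1 CPM, where the other pons libraries had 13.98 to 26.2. Liver had the highest sums, 450 to 738 CPM, at 1.09 to 18.0 CPM of Hdc. With 3 of the 6 genes at 0 throughout, the liver sum does not stand for the whole list. DR 64 and DR 62, the liver libraries with most Hdc at 18.0 and 12.3 CPM, also had the highest sums there, 738 and 693 CPM. The part of ependymal cells in the level of Hdc was not tested.

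Hrh1, the Gq-coupled receptor gene, was highest in visual cortex at 40.4 ± 5.10 CPM (n = 7), 1.75 ± 0.11 log2 units above the other regions (edgeR, adjusted p = 1.3e-26). The 4 AL libraries there had 36.8, 37.5, 44.5 and 46.1 CPM and the 3 PBS libraries 32.4, 40.7 and 45.0. Hypothalamus followed at 35.1 ± 3.43 CPM (n = 7, log2 difference 1.46 ± 0.11), and pons, motor cortex, thalamus, entorhinal cortex and posterior hippocampus were also called higher. The lowest levels were in caudate putamen (5.62 ± 1.21, n = 8) and olfactory bulb (3.12 ± 0.575, n = 8), whose ranges did not overlap. The posterior hippocampus had 17.8 ± 8.03 CPM (n = 7) and was called higher, while the anterior hippocampus had 7.23 ± 2.57 (n = 8) and was called lower. The larger SD exceeded the difference between neighbours in 10 of 14 pairs.

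Hrh2, the Gs-coupled receptor gene, was highest in the region where Hrh1 was lowest. In the olfactory bulb it had 23.0 ± 2.24 CPM (n = 8), 1.75 ± 0.091 log2 units above the other regions (edgeR, adjusted p = 8.9e-34). The 4 AL bulbs had 20.5, 20.8, 20.9 and 22.4 CPM and the 4 PBS bulbs 23.5, 24.2, 24.5 and 26.9, all above every control library of every other region. Visual cortex (14.5 ± 2.60, n = 7), motor cortex (11.9 ± 1.77, n = 8) and thalamus (9.24 ± 1.56, n = 8) were also called higher. The level was lowest in the SVZ, at 3.82 ± 0.655 CPM (n = 8). From pons downward the regions formed a slope without steps: none of the 10 neighbouring pairs there differed by more than the larger SD.

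Hrh3, the Gi/o-coupled auto- and heteroreceptor gene, was highest in thalamus at 257 ± 29.0 CPM (n = 8), 1.79 ± 0.075 log2 units above the other regions (edgeR, adjusted p = 1.2e-40). The 4 AL thalami had 224, 243, 255 and 285 CPM and the 4 PBS thalami 216, 254, 279 and 297. Caudate putamen was second at 203 ± 28.7 CPM (n = 8, log2 difference 1.46 ± 0.077), and both steps, from thalamus to caudate putamen and from there to corpus callosum (145 ± 35.8, n = 6), exceeded the larger SD. Motor cortex had 140 ± 14.4 CPM (n = 8) and visual cortex 97.6 ± 17.4 (n = 7). The largest fall between neighbours in the lower range was from posterior hippocampus (79.1 ± 17.5, n = 7) to anterior hippocampus (41.3 ± 10.4, n = 8), whose ranges did not overlap. Medulla, olfactory bulb and pons lay between 30.8 and 35.2 CPM, and cerebellum was lowest at 23.5 ± 3.30 CPM (n = 7). The corpus callosum libraries, next after caudate putamen, were those with striatal transcripts, and the part of striatal tissue in their Hrh3 level was not tested. In liver, Hrh3 had 0 counts in all 9 libraries, and Hrh1 and Hrh2 had at most 2 and 7.

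The members did not share a regional pattern. Over the means of 15 regions on the log2 scale, the correlation was 0.22 between Hrh1 and Hrh3, 0.01 between Hrh1 and Hrh2, and -0.57 between Hrh2 and Hdc. Among 15387 genes, those most like Hrh3 by Pearson's r over the 15 region means were Stox1 (0.92), Fbxo6 (0.90), Lrrc3 (0.90), Tasp1 (0.87) and Sub1 (0.87). For Hrh1 they were Pex14 (0.92), Trpv2 (0.91), Atxn2 (0.89), Cep170b (0.89) and Trappc13 (0.89), and for Hrh2 Midn (0.87), Rab11fip4 (0.86), Amigo1 (0.86), Adgrb1 (0.86) and Pde4d (0.85). Hdc was closest to Rassf9 (0.95), Styxl1 (0.94), Spag8 (0.94), Ccdc78 (0.94) and Nxn (0.92), of which Spag8 encodes a protein of motile cilia and sperm flagella. These correlations describe 15 points that share mice, and carry no test.

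The diet values of Hrh3, on which the set was selected, were highest relative to AL in olfactory bulb and visual cortex. In visual cortex the 4 AL libraries had 104.5, 105.0, 105.3 and 111.0 CPM and the 5 aDR libraries 151, 153, 158, 162 and 176. The restricted mice were all above the freely fed ones, at 160 ± 9.97 against 106 ± 3.02 CPM, a log2 difference of 0.58 ± 0.060 (SE). In the olfactory bulb the AL libraries had 30.1, 35.1, 36.2 and 39.3 CPM and the aDR libraries 51.1, 55.8, 57.5, 65.0 and 76.1, again without overlap, with a log2 difference of 0.75 ± 0.11. In motor cortex the AL libraries had 137, 145, 158 and 160 CPM and the aDR libraries 170, 182, 190, 198 and 203, with a log2 difference of 0.34 ± 0.063. These 3 regions are listed by library because they passed the threshold for naming, which is no test for the contrast that chose the gene. Visual cortex alone passed it when AL 63 or AL 68 was left out. Larger differences than in motor cortex, but with overlapping groups, were those in caudate putamen (0.44 ± 0.23), SVZ (0.42 ± 0.17) and entorhinal cortex (0.40 ± 0.18). Nothing is read from which regions passed, since this contrast chose the gene.

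The groups were also apart in thalamus, with AL at 224 to 285 and aDR at 289 to 328 CPM (log2 difference 0.29 ± 0.087), and in cerebellum, with AL at 24.7 to 26.5 and aDR at 27.7 to 31.9 CPM (0.20 ± 0.069). Groups without overlap and higher in aDR, which Hrh3 showed in 5 of 15 regions, were found in 1.61% of all gene by region tests. In 13 regions the mean change was positive, and the median over 15 regions was 0.32. The exceptions were posterior hippocampus (-0.25 ± 0.21) and pons (-0.18 ± 0.30). In pons the aDR libraries ran from 15.1 to 53.7 CPM around the AL range of 30.4 to 41.8, and the lowest, aDR 67, had 23.4% of its counts in 10 genes. Hypothalamus, where histamine neurons lie, had a log2 difference of 0.04 ± 0.12 and overlapping groups, with 86.8, 105, 123.6 and 123.9 CPM in aDR and 96.1, 97.1, 115 and 118 in AL.

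**Figure D3:**
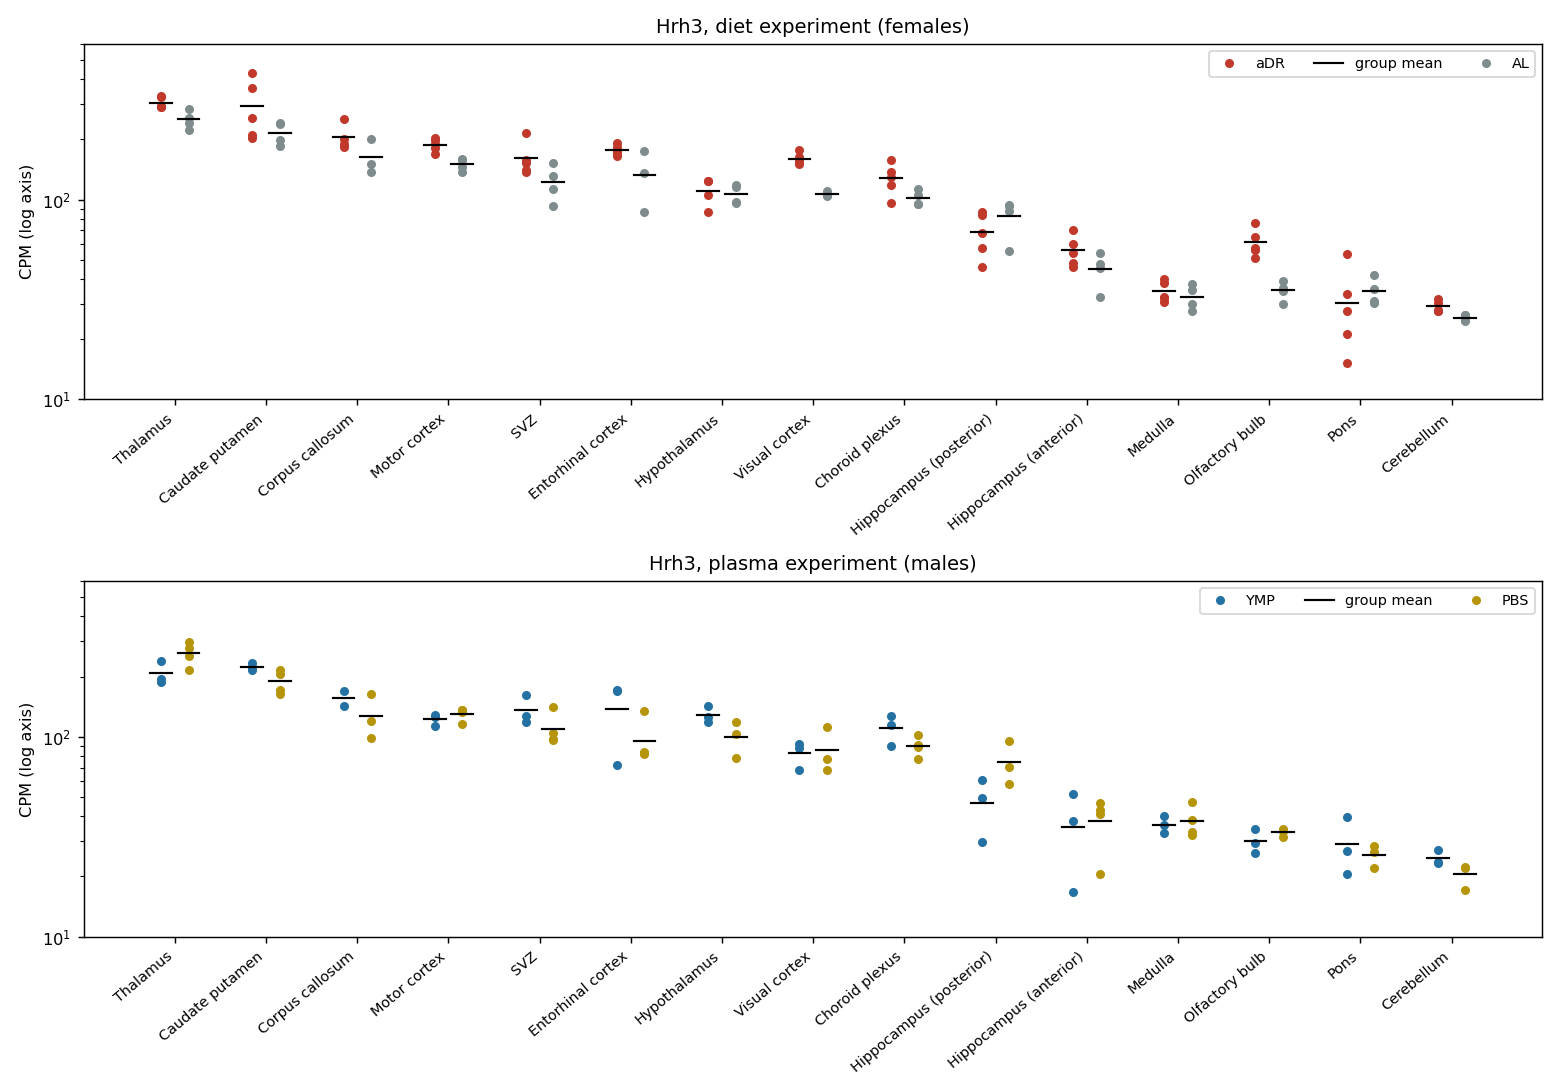
Hrh3 in every brain library, in CPM on a log axis, by region in the order of the control level, with aDR and AL females above and YMP and PBS males below; bars are group means. The aDR points are clear of the AL points in visual cortex (151 to 176 against 104.5 to 111.0 CPM) and olfactory bulb, and no such gap is seen there in the plasma experiment.

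Markers of other cells were compared in the 3 regions. The 6 pan-neuronal genes summed to 8527 to 9406 CPM in aDR and 8340 to 9507 in AL visual cortex, 5341 to 6062 and 5227 to 5904 in olfactory bulb, and 9379 to 10109 and 9669 to 10010 in motor cortex, overlapping in each. The sum of 10 striatal projection neuron genes was higher in aDR without overlap in visual cortex (290 to 321 against 263 to 287 CPM) and in motor cortex (259 to 281 against 234 to 255). It overlapped in olfactory bulb, at 369 to 518 against 404 to 483 CPM. The same sum was 7544 to 21746 CPM in caudate putamen. The part of striatal transcripts in the cortical Hrh3 difference was not tested.

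The other members were tested for diet within each region. None of Hrh1, Hrh2 and Hdc was called in any of the 15 regions by edgeR, where Hrh1 and Hrh2 were tested in 15 each and Hdc in 13. DESeq2 called 0 as well, and over all genes 0.0525% of the edgeR tests were called. At an unadjusted p under 0.05 there were 2 regions for Hrh1 (motor cortex and hypothalamus), 1 for Hrh2 (motor cortex) and 0 for Hdc. Over all genes, 1379 of 13128 tested were under it in motor cortex and 639 of 13804 in hypothalamus.

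For Hrh1 the lowest p was in motor cortex, where Hrh3 was higher in aDR. The AL libraries had 24.2, 24.5, 25.2 and 27.4 CPM and the aDR libraries 17.6, 17.7, 19.9, 21.1 and 21.9. All 5 restricted mice were below all 4 freely fed mice, at 19.6 ± 1.92 against 25.3 ± 1.45 CPM, a log2 difference of -0.37 ± 0.088 (edgeR, adjusted p = 0.11). In hypothalamus the AL libraries had 32.5, 32.5, 36.5 and 39.2 CPM and the aDR libraries 20.6, 26.9, 27.1 and 30.8, again without overlap. This log2 difference was -0.41 ± 0.13 (adjusted p = 0.99). Groups without overlap and lower in aDR were found in 1.47% of all gene by region tests, and for Hrh1 in 2 of 15. Beside it in motor cortex stood the striatal marker sums given above and 3350 to 6206 CPM of 6 oligodendrocyte genes in aDR against 3116 to 4217 in AL, which overlapped. Their part in the Hrh1 difference was not tested.

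For Hrh2 the lowest p was likewise in motor cortex, where 10.1, 13.2, 13.6 and 14.5 CPM in AL stood beside 9.92, 10.5, 10.7, 10.8 and 12.1 in aDR. These overlapped, with a log2 difference of -0.28 ± 0.11 (adjusted p = 0.39). For Hdc the lowest p was in thalamus (-1.18 ± 0.74, adjusted p = 0.99), where AL had 1.09, 1.37, 2.94 and 9.26 CPM and aDR 0.711, 0.862, 0.975, 1.78 and 5.36. The highest library of each group, AL 68 and aDR 64, also had the most ependymal marker reads of its group, at 148 and 122 CPM. The difference was -0.15 without AL 68 and -1.91 without aDR 64. Hypothalamic Hdc was 3.01, 12.01, 92.2 and 154 CPM in aDR beside the AL values given above, a difference of 0.91 ± 0.99 with full overlap (adjusted p = 0.99). Its size depended on single libraries, as it was 0.015 without aDR 67, 0.58 without AL 68 and 1.43 without AL 66. In liver, Hdc had 1.09, 1.90, 3.69 and 4.76 CPM in AL and 3.22, 3.90, 5.01, 12.3 and 18.0 in DR. The 2 highest DR libraries were clear of all others, but the groups overlapped, with a log2 difference of 1.67 ± 0.59 (adjusted p = 0.38, where 0.22% of liver genes were called). Of 8 mast cell markers, 7 were at 0 in every liver library.

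**Figure D4:**
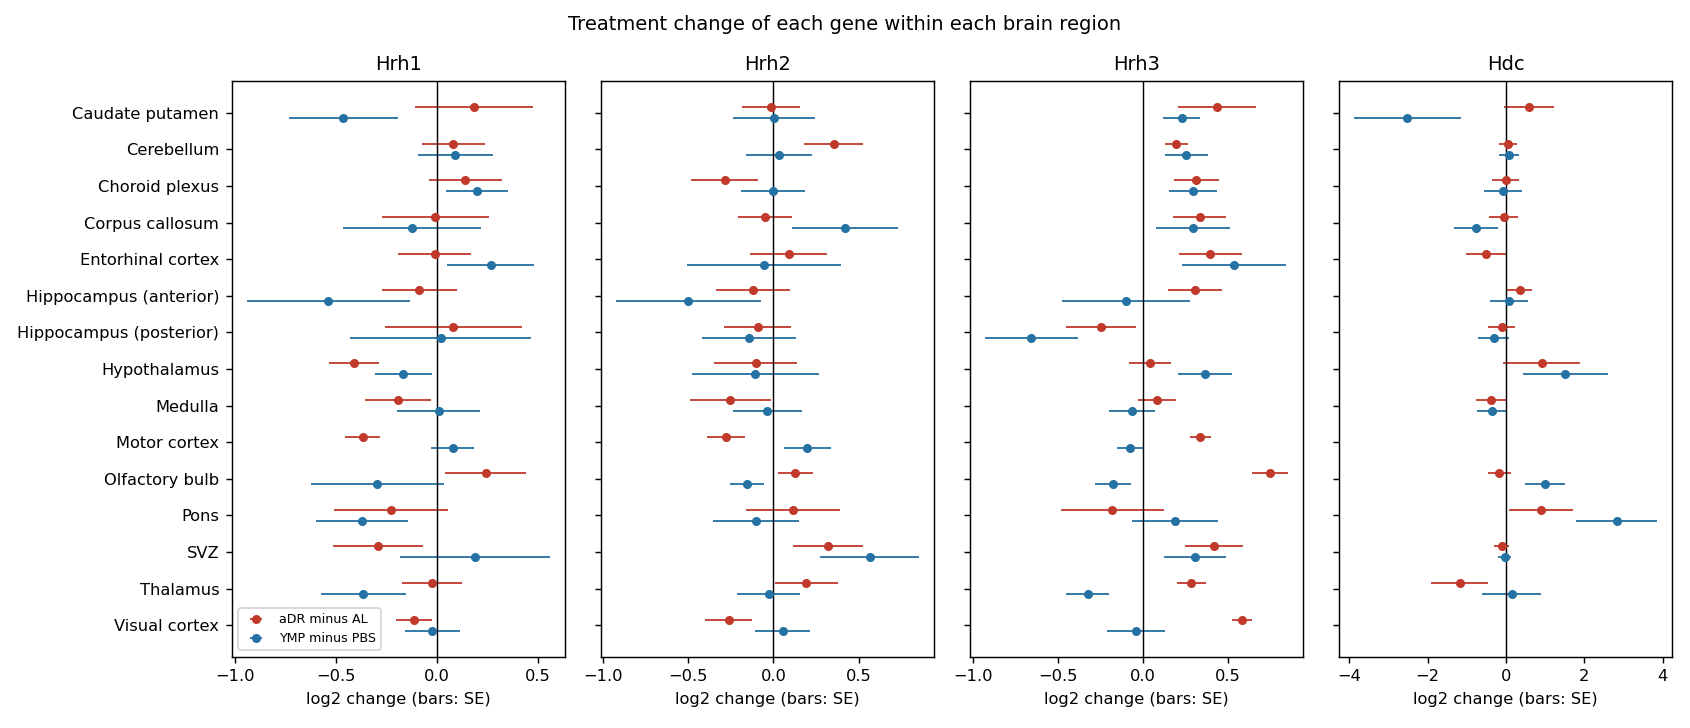
Change of each histamine gene with diet (aDR minus AL) and with plasma (YMP minus PBS) within each brain region, on the log2 scale, with SE bars. Hrh3 lies right of 0 in 13 of 15 regions for diet, the other receptors scatter around 0, and Hdc has the widest bars. Each gene has a log2 axis of its own.

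Young plasma called no member in any region by edgeR, where the receptors were tested in 15 regions each and Hdc in 12. Over all genes 0.0127% of these tests were called, and DESeq2 called 0 tests of members. At an unadjusted p under 0.05 there were 2 regions for Hrh3 (thalamus and posterior hippocampus), 1 for Hdc (pons) and 0 for Hrh1 and Hrh2. Over all genes, 332 of 13710 tested were under it in thalamus, 275 of 13857 in posterior hippocampus and 150 of 13135 in pons. For Hrh3 the lowest p was in thalamus, where the YMP libraries had 189, 194 and 240 CPM and the PBS libraries 216, 254, 279 and 297. The mean was lower after plasma, but YMP 77 lay above PBS 76, and the log2 difference was -0.32 ± 0.13 (adjusted p = 1.0). In posterior hippocampus it was -0.65 ± 0.27 (adjusted p = 1.0). In visual cortex Hrh3 was 67.8, 87.6 and 92.1 CPM in YMP and 67.8, 77.7 and 112 in PBS, a log2 difference of -0.04 ± 0.17. In olfactory bulb it was -0.17 ± 0.10 and in motor cortex -0.07 ± 0.079, where the diet differences were 0.75 and 0.34.

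The lowest p of the other members after plasma were in thalamus for Hrh1 (-0.37 ± 0.21, adjusted p = 1.0), in the SVZ for Hrh2 (0.56 ± 0.29, adjusted p = 0.45) and in pons for Hdc (2.83 ± 1.04, adjusted p = 1.0). The Hrh1 difference was -0.18 without PBS 84, and that of Hrh2 was 0.85 without PBS 72. In the SVZ, Hrh2 was 4.13, 6.58 and 6.62 CPM in YMP and 2.80, 3.75, 3.90 and 5.16 in PBS. The pons difference of Hdc came with a single library, as YMP had 1.96, 2.24 and 24.5 CPM and PBS 0.905, 1.42 and 1.74. In counts these were 4 to 204 in YMP and 2 to 11 in PBS. The library at 2.24 CPM, YMP 81, held 1.83 M counts in all. The library with most Hdc, YMP 77, also had 815 CPM of Slc18a2 against 67.0 and 188 in the other YMP pons libraries. Its mast cell markers without Hpgds were at 1.44 CPM against 0.33 and 0. In the diet experiment, the pons of aDR 64 had 522 CPM of Slc18a2 at 19.6 CPM of Hdc. Its mast cell markers without Hpgds were at 0.74 CPM. The pons of AL 68 had 794 CPM of Slc18a2 at 8.18 CPM of Hdc. That of aDR 67, with 23.4% of its counts in 10 genes, had 51.1 CPM of Slc18a2 at 9.20 CPM of Hdc. The part of these transcripts in the Hdc difference was not tested. Groups without overlap were found for Hrh3 in 2 regions (cerebellum and hypothalamus, both higher), for Hrh2 in 2 (corpus callosum higher, olfactory bulb lower), for Hdc in 1 (pons) and for Hrh1 in 0. In this smaller experiment 9.16% of all tests had groups without overlap. In hypothalamus the sum of 5 thalamic neuron genes was also higher in YMP without overlap, at 584 to 989 against 313 to 472 CPM. The same sum was 2638 to 4784 CPM in thalamus, the region with most Hrh3. The part of thalamic transcripts in the hypothalamic Hrh3 difference was not tested.

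Over the whole brain, each mouse was given 1 value per gene, its level over regions in log2 CPM after the regional differences had been removed. For Hrh3 the 4 AL mice had 6.33, 6.34, 6.47 and 6.50 and the 5 aDR mice 6.51, 6.67, 6.71, 6.72 and 6.74. The groups did not overlap, though the lowest restricted mouse, aDR 61, was next to the highest freely fed mouse, and the log2 difference was 0.26 ± 0.058 (SE). Of all genes, 4.16% were higher in aDR without overlap. In the plasma experiment Hrh3 had 6.26, 6.26 and 6.29 in YMP and 6.07, 6.17, 6.24 and 6.30 in PBS, overlapping, with a log2 difference of 0.07 ± 0.061 (limma, adjusted p = 0.78).

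None of the other members was called over the whole brain, and their treated and control mice overlapped. With diet, limma gave -0.07 ± 0.060 for Hrh1 (adjusted p = 0.63), -0.03 ± 0.057 for Hrh2 (adjusted p = 0.84) and -0.16 ± 0.095 for Hdc (adjusted p = 0.45), where 0.922% of genes were called. With plasma it gave -0.16 ± 0.081 for Hrh1 (adjusted p = 0.64), -0.0023 ± 0.097 for Hrh2 (adjusted p = 0.996) and 0.02 ± 0.26 for Hdc (adjusted p = 0.99), where 0% of genes were called. For Hdc the mouse values ran from 0.86 to 1.99 among PBS mice, wider than in any other group. The median over all genes was -0.0062 with diet and -0.0037 with plasma.

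**Figure D5:**
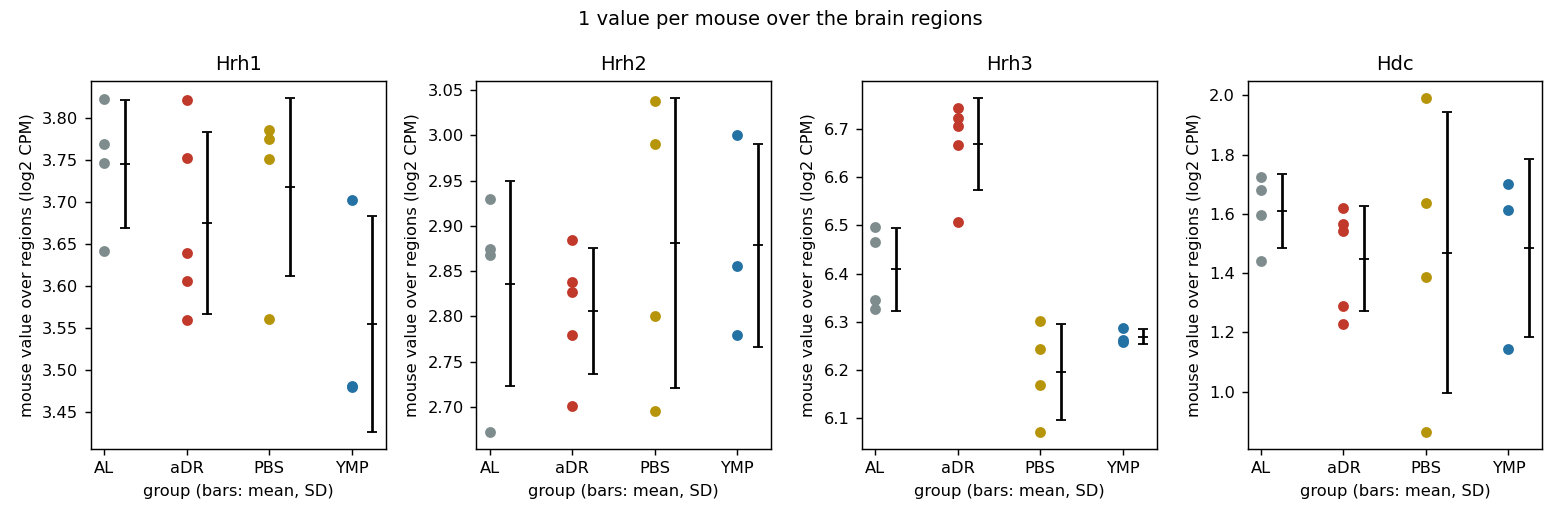
Value of each mouse over the brain regions for each gene, in log2 CPM, in the AL, aDR, PBS and YMP groups, with the mean and SD beside the points. For Hrh3 the 5 aDR mice (6.51 to 6.74) sit above the 4 AL mice (6.33 to 6.50), and in the other panels treated and control mice overlap.

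The diet change minus the plasma change over regions was 0.09 ± 0.10 for Hrh1 (limma, adjusted p = 0.78), -0.03 ± 0.11 for Hrh2 (adjusted p = 0.95) and -0.17 ± 0.28 for Hdc (adjusted p = 0.86), with 0.168% of genes called. For Hrh3 it was 0.19 ± 0.085, given without a test. Whether a treatment change differed between regions was tested by an edgeR F test of 14 treatment by region terms. For diet the adjusted p was 1.0 for Hrh1, Hrh2 and Hdc, with 0.0128% of genes called. For plasma it was 1.0 for Hrh1 and Hrh2, 0.74 for Hrh3 and 0.94 for Hdc, with 0.824% of genes called.

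The genes that store, carry and break down histamine, and those that act beneath its receptors, were taken as lists. Of 9 handling genes, 0 were called with diet and 0 with plasma in the test over regions, and of 23 signalling genes tested likewise 0 and 0. With diet 5 handling genes had higher and 4 lower values, with a median log2 change of 0.0086, and 6 signalling genes were higher and 17 lower, with a median of -0.04. Over all genes 46.6% were higher. With plasma 2 handling genes were higher and 7 lower (median -0.11), and 18 signalling genes were higher and 5 lower (median 0.05), where 48.2% of all genes were higher. The same lists gave 0 calls within regions, in 103 and 345 tests with diet and 102 and 345 with plasma.

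Hnmt, histamine N-methyltransferase, which inactivates histamine in the brain, had a log2 change of 0.0086 ± 0.042 with diet and 0.0055 ± 0.049 with plasma. It had counts in all 238 libraries, and its regional means ran from 14.9 CPM in cerebellum to 42.8 ± 5.02 in corpus callosum in control mice. Maob, the oxidase that acts after Hnmt, was highest in thalamus at 252 ± 62.7 CPM (n = 8), the region with most Hrh3, and had changes of -0.06 ± 0.049 and -0.11 ± 0.055. Slc18a2 had the lowest p of the handling genes with diet (-0.18 ± 0.076, adjusted p = 0.28). Slc22a3, a low-affinity carrier that takes up histamine, had it with plasma (-0.26 ± 0.085, adjusted p = 0.50). Among signalling genes the lowest p was that of Gna11, a Gq-class alpha subunit, with diet (0.09 ± 0.026, adjusted p = 0.14) and of Plcb4, a phospholipase C, with plasma (-0.22 ± 0.063, adjusted p = 0.47). The alpha subunits through which the H3 receptor acts had diet changes of -0.05 ± 0.048 (Gnai1), -0.0077 ± 0.030 (Gnai2), 0.03 ± 0.036 (Gnai3) and -0.04 ± 0.030 (Gnao1).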

How the data were processed

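The authors deposited whole-number read counts per gene for every library. Per the submitters' processing notes, Trim Galore 0.3.7, STAR 2.5.3a, DESeq2 and the build GRCm38 were used, and the roles of these tools, the counting program and the annotation are not given in the sources used here. Per the labels' protocols, cDNA was made with Smart-Seq2 and libraries with Nextera XT, without strand. The 4 members and the gene lists were chosen with earlier results of these data known.

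From the counts, CPM were computed on TMM-scaled totals of the brain libraries, with liver scaled apart. Treatments within a region were compared in edgeR 4.0.16 under R 4.3.3, by its quasi-likelihood F test after filterByExpr (minimum count 10, minimum total 15). For the whole brain, log2 CPM with a prior count of 2 was modelled by region and mouse, and the mouse terms were compared by limma 3.58.1. Regions were compared in the AL and PBS libraries with experiment as covariate. That main fit had no term for the mouse, so libraries of the same mouse counted as independent. Benjamini-Hochberg adjustment ran over all genes tested, and 0.05 was the threshold. Tests of a single contrast were two-sided. Simulated data were used first for diet in visual cortex, diet over regions, thalamus against the other regions and plasma by region. The diet minus plasma contrast and DESeq2 had no such trial. Named were all members, in each experiment the region of the lowest p, the regions called, and the 5 genes most alike in regional mean among those with at least 1 CPM.

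The mouse number marks 1 animal in all its regions, per the labels, and so pairs regions but never treatments. The residuals of the same mouse correlated by 0.047 on average in the diet experiment, against -0.0058 between mice, and by 0.099 against -0.017 in the plasma experiment. Of 357 replicate pairs none agreed within sampling noise (chi-square per degree of freedom at least 1.29), and all were kept. Alternatives were other size factors, no filter, prior counts of 0.5 and 5, DESeq2 1.42.0, the mouse as a block, and leaving out mice or libraries.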

Additional observations from a re-analysis of the deposited data

Results flagged for a closer look

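In 38 groups of 4 to 10 values, 3 held a value whose gap to its nearest neighbour was large against the range of the group (Dixon's ratio above its 95% limit). Chance gives about 1 in 20 such groups. The Hrh1 value over regions of PBS mouse 76 was 3.56 log2 CPM, below the 3.75 to 3.79 of the other PBS mice. Hrh3 in visual cortex of AL mouse 66 was 111 CPM beside 104.5 to 105.3 in the other AL mice, a small gap in a tight group that remained below every aDR library. Hdc in thalamus of aDR mouse 64 was 5.36 CPM beside 0.711 to 1.78 in the other aDR mice.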

How the results depend on the processing

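Of 523 alternative values of 40 results, 504 kept their direction and their call or, for values given without a test and for counts, stayed near the value reported. The other values were 17 changes of sign and 2 moved counts. None of Hrh1, Hrh2 and Hdc was called within a region under any size factor, filter, tool or mouse left out. The 2 moved counts were of regions where Hrh3 passed the threshold with diet. They were 1 in place of 3 without AL 63 or without AL 68, where 8 mice remain. These counts describe the contrast that chose the gene and are no test of it. The changes of sign were all in values over the whole brain. Without single mice, the plasma change ran from -0.068 to 0.052 for Hrh2 and from -0.19 to 0.20 for Hdc, and the diet minus plasma change from -0.081 to 0.036 for Hrh2 and from -0.35 to 0.048 for Hdc. PBS mouse 72, whose hypothalamus stood apart, gave the lowest plasma change of Hdc when left out. The plasma change of Hrh2 was 0.018 without the libraries under 2 M counts and a pons library, and that of Hdc -0.031 with a prior count of 0.5. With the mouse as a replicate block (voom), the plasma change of Hrh1 was 0.0016 and the diet change of Hrh3 0.28. With no replicate block, over all libraries, the plasma change of Hrh2 was 0.0068 and the diet change of Hdc 0.018. The cause was not tested. In the comparison of regions the block changed 0 of 60 calls of members, DESeq2 ended 1, and 10 differed in AL mice only as in PBS mice only, which have fewer samples. Hdc in pons after plasma could not be fitted without YMP 77, YMP 73 or PBS 84, as it then failed the filter. Low counts limited where Hdc could be tested. It had a median of 16 counts in a library and passed the filter on low counts in 13 of 15 regions with diet.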
